A study of Homo sapiens with 2 samples.

Results

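The EGF receptor ligands were followed as 7 genes, AREG, EREG, HBEGF, TGFA, BTC, EPGN and EGF, among 25937 gene names on the array. Every gene probe carrying 1 of these names was taken, which gave 9 probes: AREG and TGFA had a pair each and the other genes had 1. MKN74 and MKN45, both human gastric cancer cell lines, were electroporated with siRNA at 50 nM and harvested after 48 hours. In each line, total RNA from cells given siRNA against SET7/9 was labelled with Cy5 and total RNA from cells given a negative control siRNA was labelled with Cy3, and both were hybridised to 1 two-colour Agilent array. SET7/9, encoded by SETD7, is a lysine methyltransferase that acts on histone H3 and on other proteins. With 1 array per line and no dye exchange, no test within a line was possible, none across the lines was run, and an effect of the dye cannot be told apart from the knockdown. A difference between the lines likewise cannot be told apart from a difference between their arrays. Each ± below on a signal or knockdown ratio is the error that the scanner software assigned to a single spot, and not a spread between replicates. For a difference between the lines, the ± combines the software's errors from both arrays. It leaves out the uncertainty of scaling across arrays.

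The ligands are made as membrane-anchored precursors that are cut at the cell surface by metalloproteinases of the ADAM family. The released growth factor binds the EGF receptor, which pairs with itself or with ERBB2, ERBB3 or ERBB4 and passes the signal on through RAS and the MAP kinases. AREG, TGFA, EGF and EPGN bind EGFR, whereas HBEGF, BTC and EREG also bind ERBB4. AREG, EREG, HBEGF and TGFA are themselves transcribed in response to this signal. In the stomach, TGFA and AREG act on the growth and repair of the mucosal epithelium.

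Of these ligands, AREG, HBEGF and TGFA were measured in both lines, EREG and BTC in MKN45 but not in MKN74, and EPGN and EGF in neither. No ligand probe that was well above background in at least 1 channel reached a 1.5-fold difference, 0.58 on the log2 scale, after SET7/9 knockdown in either line. HBEGF had the highest knockdown ratio, with log2 values of 0.30 in MKN74 and 0.37 in MKN45. The control cells of the lines differed far more: AREG was 37-fold higher in MKN74 by 1 probe and 31.5-fold by the other, HBEGF was 3.90-fold higher in MKN74, and EREG was at least 9.71-fold higher in MKN45. On the log2 scale this EREG bound was 3.28, and it lay between 1.94 and 3.90 under other scaling and background correction.

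The probes decide which transcript each value belongs to, so their sequences and places are given first. Positions are those of the array file, on GRCh37. Exons and UTRs were not assigned, because no annotation of that build was used here. AREG probe 1 lay at chr4:75320518-75320577 and AREG probe 2 at chr4:75318293-75318352, both on the plus strand, 2.2 kb apart. RefSeq lists AREGB as a synonym of AREG, and a second copy under that name was not measured separately. TGFA probe 1 lay at chr2:70683472-70683531 and TGFA probe 2 at chr2:70675319-70675378, both on the minus strand, and HBEGF at chr5:139713052-139713111 on the minus strand. EREG lay at chr4:75254009-75254068 and EPGN at chr4:75178782-75178841 on the plus strand, BTC at chr4:75675838-75675897 on the minus strand, and EGF at chr4:110932689-110932748 on the plus strand. The AREG and TGFA probes that read the transcript at different places are shown because agreement between them bears on every AREG and TGFA value, and EREG, HBEGF and BTC because they carry the other measured values. AREG probe 2 and TGFA probe 1 are written whole, at 60 bases, and the others by their first 30 bases, 5′ to 3′ as deposited.
AREG probe 1: tgagtcggtcctctttccagtggatcataa
AREG probe 2: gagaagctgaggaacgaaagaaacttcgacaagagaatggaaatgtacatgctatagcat
TGFA probe 1: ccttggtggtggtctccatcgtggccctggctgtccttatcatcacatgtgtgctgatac
TGFA probe 2: ttttttaagcatcctgacaggaaatgtttt
EREG: tgttcatatgggagaagggggagtaatgac
HBEGF: cccatctgtagtaatttattgtctgtctac
BTC: agagagttgacttgttttacctaagaggag

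Of the ligand genes, 4 stand in a row in RefSeq's order of protein-coding genes on chromosome 4: EPGN, EREG, AREG and BTC, between MTHFD2L and PARM1. On GRCh37 the EPGN and EREG probes were 75.2 kb apart, EREG and AREG probe 2 were 64.2 kb apart, and AREG probe 1 and BTC were 355.3 kb apart. EGF lies on the same chromosome, 35256.8 kb from the BTC probe. Their control levels did not all run the same way. AREG was higher in MKN74, and EREG was at least 9.71-fold higher in MKN45. BTC was well above background in MKN45 alone, but its direction could not be given. Its control level there, 4.32 on the scaled log2 scale, lay below the lowest signal that passed in MKN74 control cells, 4.46. EPGN was not well above background in either line.

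The promoters of AREG and EREG are printed because these neighbours differed between the lines in opposite directions. The 250 bases before each start site come from RefSeq on GRCh38.p14, plus strand. Both strands were searched for the cyclic AMP response element, TGACGTCA, and for the element bound by the AP-1 factors, which is written here with any base at its centre as TGANTCA. The TATA box, at which the basal transcription machinery assembles, was searched for as TATAAA. Matches are in capitals, and none overlapped another.
AREG, chr4:74444886-74445135: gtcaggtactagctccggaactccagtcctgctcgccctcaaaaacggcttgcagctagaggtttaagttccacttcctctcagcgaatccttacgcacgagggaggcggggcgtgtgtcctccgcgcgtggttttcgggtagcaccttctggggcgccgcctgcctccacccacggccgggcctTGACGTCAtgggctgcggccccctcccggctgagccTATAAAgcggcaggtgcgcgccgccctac
EREG, chr4:74364895-74365144: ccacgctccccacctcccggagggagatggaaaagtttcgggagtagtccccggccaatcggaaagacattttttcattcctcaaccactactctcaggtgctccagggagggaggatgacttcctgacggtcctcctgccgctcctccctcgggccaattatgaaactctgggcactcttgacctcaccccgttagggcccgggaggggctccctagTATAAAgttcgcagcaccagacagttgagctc
The AREG window held TGACGTCA and TATAAA, and the EREG window held TATAAA. Over 35116 windows of this length, 1.65% held TGACGTCA, 6.57% held TGANTCA and 10.7% held TATAAA. Among the 8 windows of the 7 ligand genes, TGACGTCA was found in 1, TGANTCA in 1, that of EGF, and TATAAA in 3, those of AREG, EREG and EPGN. These matches describe the letters only.

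The arrays gave signals that allow these values to be read. Of 34127 gene probes, 20674 in MKN74 and 22830 in MKN45 were well above background in at least 1 channel by the scanner software, and no spot was saturated. Probes spotted repeatedly had a pooled SD of the log2 ratio of 0.087 in MKN74 and 0.0987 in MKN45, whereas every ligand probe was a single spot. A SETD7 probe gave log2 ratios of -2.03 ± 0.28 in MKN74 and -1.95 ± 0.28 in MKN45, and a second SETD7 probe gave 0.24 ± 0.22 and -0.23 ± 0.21, so that the fall of the targeted transcript was seen by 1 of its probes. All 7 epithelial marker genes were detected in both lines. Of 11 genes of blood, endothelium and fibroblasts, 6 were detected in MKN74 and 8 in MKN45 in at least 1 channel, and 4 and 5 of them in both.

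In MKN74, 4 of the 9 ligand probes, of 3 genes, were well above background in both channels. None was at least 1.5-fold higher, against 3.78% of all kept probes, and none was at least 1.5-fold lower, against 1.76%. In MKN45, 7 of the 9 ligand probes, of 5 genes, were kept, 6 of them with both channels. Again none was higher, against 4.81% of all kept probes, and none lower, against 1.97%. At these shares, a count of 0 among so few probes does not set the ligands apart from other genes. The median log2 ratio over the ligand genes was 0.16 in MKN74, over 3 genes between 0.12 and 0.30, and 0.11 in MKN45, over 5 genes between -0.10 and 0.37. The medians over all genes kept were 0.01 and 0.01.

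**Figure D1:**
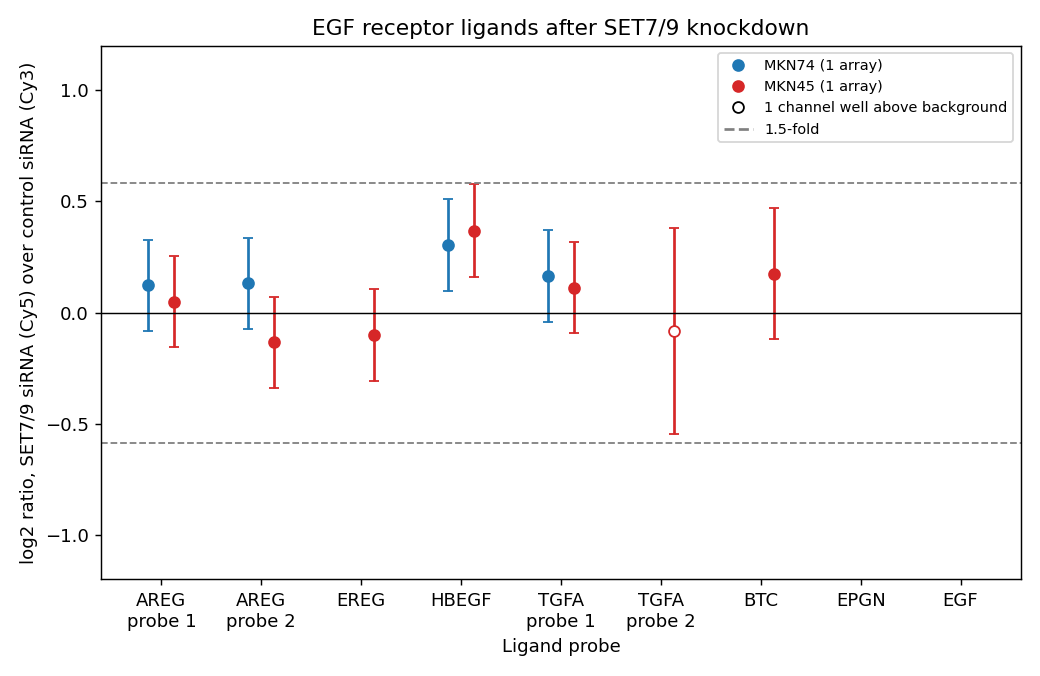
Knockdown log2 ratio of each ligand probe (SET7/9 siRNA over control siRNA) on the MKN74 array (blue) and the MKN45 array (red), 1 spot each, with the scanner software's error as bars and the 1.5-fold difference as dashed lines. All plotted values lie between -0.13 and 0.37, HBEGF is the highest in each line, and probes with neither channel well above background are not drawn.

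HBEGF, the heparin-binding EGF-like growth factor whose precursor is also the receptor of diphtheria toxin, read 832 ± 83.4 in MKN74 control cells and 1027 ± 103 in MKN74 knockdown cells. In MKN45 it read 190 ± 19.5 in control cells and 245 ± 24.6 in knockdown cells. The knockdown channel was the higher in both lines. The log2 ratios were 0.30 ± 0.21 in MKN74 and 0.37 ± 0.21 in MKN45, each larger than its error and each below 1.5-fold. Among probes with both channels well above background, 5.78% in MKN74 (1074 of 18581) and 3.97% in MKN45 (806 of 20279) had a ratio as high or higher.

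AREG encodes amphiregulin, a ligand that binds EGFR with lower affinity than EGF does. Its probe 1 read 27733 ± 2773 in control and 30197 ± 3020 in knockdown cells of MKN74, and 670 ± 67.2 and 694 ± 69.4 in MKN45. Its probe 2 read 9270 ± 927 and 10158 ± 1016 in MKN74, and 262 ± 26.4 and 239 ± 23.9 in MKN45. Within each line the control and knockdown signals lay within the error of each other, while both probes were far brighter in MKN74. In MKN74 the knockdown log2 ratios were 0.12 ± 0.20 for probe 1 and 0.13 ± 0.20 for probe 2. In MKN45 they were 0.05 ± 0.20 and -0.13 ± 0.21. Without loess normalisation of the dyes, AREG probe 1 in MKN74 had a log2 ratio of 0.48, still below 1.5-fold, and probe 2 one of 0.15, so the agreement between the probes in MKN74 depended on this step.

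TGFA encodes transforming growth factor alpha. Its probe 1 read 291 ± 29.4 in control and 326 ± 32.7 in knockdown cells of MKN74, and 358 ± 35.9 and 387 ± 38.7 in MKN45. The log2 ratios, 0.16 ± 0.21 and 0.11 ± 0.20, were within their errors. Its probe 2 was well above background in MKN45 knockdown cells alone, where it read 16.5 ± 2.69 against 17.5 ± 4.73 in control cells, a log2 ratio of -0.08 ± 0.46. TGFA values therefore rest on probe 1.

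EREG, which encodes epiregulin, read 211 ± 21.4 in control and 197 ± 19.8 in knockdown cells of MKN45, a log2 ratio of -0.10 ± 0.21. BTC, which encodes betacellulin, read 25.2 ± 4.35 and 28.5 ± 3.33 there, a log2 ratio of 0.17 ± 0.29. Neither ratio exceeded its error. In MKN74 neither transcript was well above background: EREG read 10.9 ± 3.68 in control and 7.19 ± 2.18 in knockdown cells, and BTC read 3.53 ± 3.52 and 2.14 ± 2.13. The EPGN probe, for epigen, read between 2.09 and 3.85 in the 4 RNA samples, and the EGF probe between 3.79 and 7.27, with none well above background. For EPGN and EGF a low level and a level of 0 cannot be told apart at this signal.

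To compare the lines, the signals were scaled across both arrays by the Aquantile method and are given as log2 levels. AREG probe 1 stood at 14.88 in MKN74 knockdown cells, 14.75 in MKN74 control cells, 9.59 in MKN45 knockdown cells and 9.54 in MKN45 control cells, each with an error of 0.14. AREG probe 2 stood at 13.18, 13.05, 7.94 and 8.07 in the same samples. For both probes the gap was between the lines, and the samples of a line did not differ beyond their errors. HBEGF stood at 9.86 and 9.56 in knockdown and control cells of MKN74 and at 7.96 and 7.59 in those of MKN45. TGFA probe 1 stood at 8.29, 8.12, 8.69 and 8.58 in the same order. HBEGF was thus higher in both MKN74 samples than in either MKN45 sample, and TGFA was higher in both MKN45 samples, by less than 1.5-fold.

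**Figure D2:**
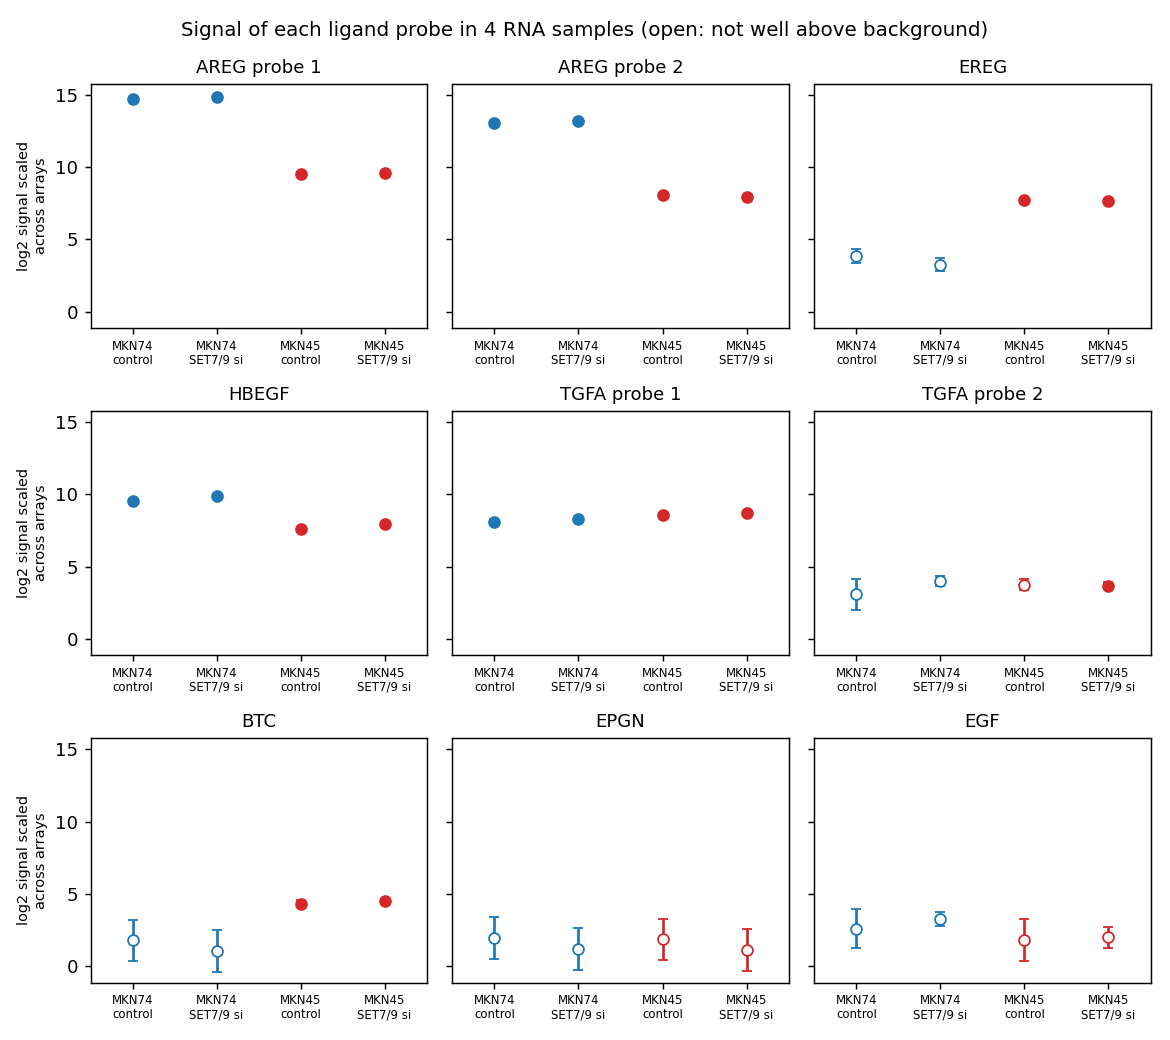
Log2 signal of each ligand probe, scaled across arrays, in control and SET7/9 siRNA cells of MKN74 (blue) and MKN45 (red), 1 spot per point with the scanner software's error as bars (hidden where smaller than the point); open points were not well above background. AREG is high in both MKN74 samples, EREG and BTC are measured in both MKN45 samples and not in MKN74, and levels are to be read across samples within a panel, not between panels.

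In control cells, the log2 difference MKN45 minus MKN74 was -5.21 ± 0.20 for AREG probe 1 and -4.98 ± 0.21 for AREG probe 2. In such bulk RNA, fewer cells with a transcript and less of it per cell cannot be told apart. The knockdown channel, labelled with the other dye on the same arrays, gave -5.28 and -5.24. Among 17414 probes measured in both control channels, 36 (0.207%) were higher in MKN74 by as much as AREG probe 1 and 50 (0.287%) by as much as probe 2, each count with the probe itself. The lines differed at many genes: 31.9% of 21610 probes detected in at least 1 control channel were at least 1.5-fold higher in MKN74 and 26.7% at least 1.5-fold higher in MKN45.

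HBEGF differed by -1.96 ± 0.21 in control cells and by -1.90 in knockdown cells, and 6.28% of the 17414 probes (1094) were higher in MKN74 by as much in control cells. TGFA probe 1 differed by 0.46 ± 0.21 in control cells and by 0.41 in knockdown cells, and 27.7% of these probes were higher in MKN45 by as much in control cells. With scaling by the 75th percentile of each array, TGFA probe 1 stood at 0.59, just past 1.5-fold. The median control difference over all 17414 probes was -0.13 with Aquantile and 0.14 with that percentile scaling, so a difference of the size of TGFA's depends on the scaling, and those of AREG and HBEGF kept their direction.

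EREG was not well above background in MKN74, so its difference is a bound: at least 9.71-fold higher in MKN45 control cells (3.28 on the log2 scale) and at least 15.6-fold in MKN45 knockdown cells. The bound sets the MKN45 level against the lowest log2 signal that passed as well above background in the MKN74 channel, 4.46 for control and 3.68 for knockdown, or against EREG's own level where that was higher. It moved to 3.90 with percentile scaling and to 1.94 with normexp background correction, higher in MKN45 in each. For BTC the control channels gave no bound above 1-fold, and the knockdown channels gave at least 1.76-fold higher in MKN45. No difference between the lines could be given for TGFA probe 2, EPGN or EGF.

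**Figure D3:**
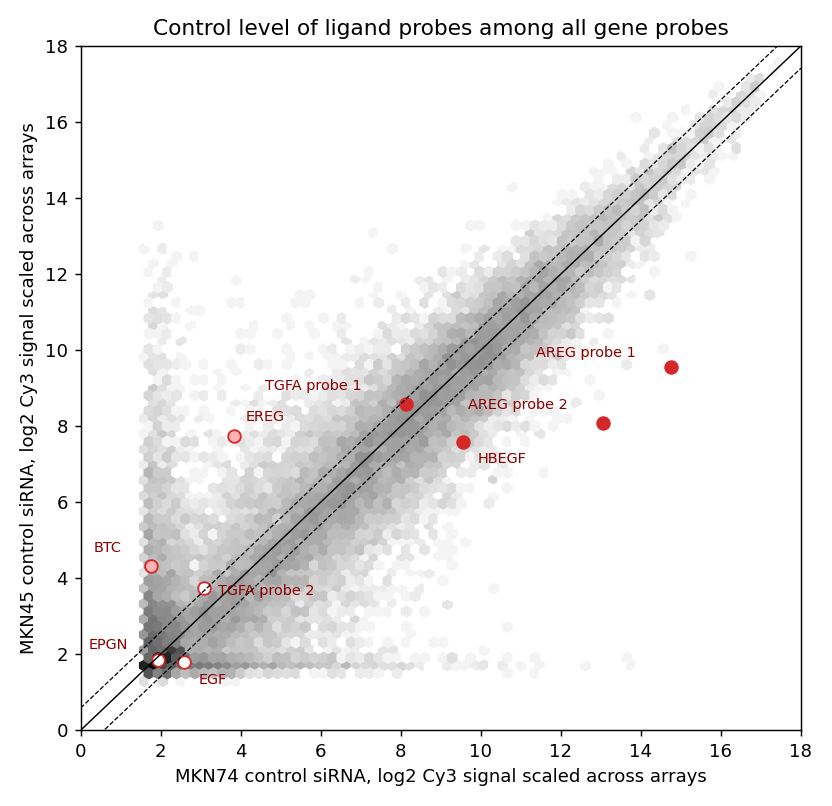
Control (Cy3) log2 signal of all gene probes, scaled across arrays, in MKN74 (x axis) against MKN45 (y axis); grey shading is the number of probes on a log scale, and dashed lines mark 1.5-fold. Filled red points are ligand probes well above background in both lines, pale points in MKN45 alone and open points in neither; both AREG probes lie at the lower right edge, and EREG lies well above the diagonal.

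For the 2 ligand genes with the widest span of level among those well above background in all 4 RNA samples, AREG (5.33 by probe 1) and HBEGF (2.27), the probes with the most similar levels over the 4 RNA samples were sought among 17362 probes, by the Euclidean distance of centred log2 levels. Nearest to AREG probe 1 was TRIB3, a pseudokinase gene of the stress response, at a distance of 0.11, with a control difference of -5.19. Next were a transcript listed without a gene symbol, at 0.22, and KLC3, a kinesin light chain gene, also at 0.22. Nearest to HBEGF was RNF139, which encodes a ubiquitin ligase of the endoplasmic reticulum, at 0.04, with knockdown ratios of 0.32 in MKN74 and 0.37 in MKN45. EXD3 and HBS1L followed at 0.06 and 0.08. With only 4 values per probe, such likeness is a description of these samples.

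The receptors were read beside their ligands. EGFR, the receptor all 7 ligands bind, had 3 probes with log2 knockdown ratios of -0.02 ± 0.20, 0.49 ± 0.26 and -0.01 ± 0.29 in MKN74 and of 0.00 ± 0.20, -0.28 ± 0.24 and -0.21 ± 0.31 in MKN45. None reached 1.5-fold. In control cells EGFR was higher in MKN74 by 2 of these probes, at -0.85 ± 0.20 and -0.76 ± 0.33 (MKN45 minus MKN74), and the other read 0.20 ± 0.28.

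ERBB2, the partner without a ligand of its own, had ratios from -0.24 to -0.02 over a pair of probes and both lines. Its control difference was 0.30 ± 0.20 by 1 probe and -1.88 ± 0.28 by the other, so that the probes disagreed on the line with the higher level. ERBB3, a partner with an impaired kinase, had ratios from -0.15 to 0.05 by 2 of its probes, while another read -2.34 ± 0.34 in MKN45 and was not well above background in MKN74. The former probes were both higher in MKN45 control cells, by 0.22 ± 0.20 and 1.04 ± 0.21. For the remaining probe, the bound was at least 1.73 higher in MKN45 control cells but only 0.02 in knockdown cells. ERBB4 was not well above background by either of its probes in any sample.

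Among the neuregulins, the ligands of ERBB3 and ERBB4, NRG4 had log2 ratios of -0.71 ± 0.27 in MKN74 and -0.32 ± 0.21 in MKN45, past 1.5-fold lower in MKN74. Its control level was higher in MKN45 by 2.65 ± 0.24. NRG2 was well above background in MKN45 alone, with a ratio of -0.39 ± 0.28. NRG1 and NRG3 were not well above background in any sample.

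Of 10 sheddases and their partners, which cut the ligand precursors or help the enzymes that do, no probe with both channels well above background reached 1.5-fold in either line (8 such probes in MKN74 and 12 in MKN45). Of the kept probes, 1 of 10 in MKN74 and 1 of 15 in MKN45 were higher, against 3.78% and 4.81% of all kept probes. In MKN74 0 were lower and in MKN45 1, against 1.76% and 1.97%. Counts among so few probes do not set this list apart. With 1 channel alone, a probe of ADAM12 read 0.70 ± 0.52 in MKN74, and in MKN45 a probe of ADAM19 read 0.78 ± 0.33 and another of ADAM12 read -1.12 ± 0.49. In control cells, 3 of 9 detected genes were at least 1.5-fold higher in MKN74 and 1 in MKN45, against 31.1% and 27.1% of 16700 genes. At these shares, counts among 9 genes do not set the list apart. By their log2 difference MKN45 minus MKN74, the 3 were ADAM17, the main sheddase of AREG, EREG, HBEGF and TGFA, at -1.98 ± 0.21, ADAM10, the main sheddase of BTC and EGF, at -0.94 ± 0.20, and ADAM8 at -2.68 ± 0.20. The 1 was RHBDL2, a rhomboid protease, at least 3.51 higher on the log2 scale, a bound not recomputed under other processing. These genes were named after their values were seen.

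Over all kept probes, 3.78% were at least 1.5-fold higher and 1.76% lower in MKN74, and 4.81% and 1.97% in MKN45, so that counts of 0 or 1 in the lists below do not set them apart. Downstream of the receptors, 15 genes of the adaptors and the RAS and MAP kinase relay gave 0 of 20 kept probes past 1.5-fold in MKN74 and 0 of 19 in MKN45, with medians of -0.03 and -0.04. The 16 feedback inhibitors gave 0 of 17 and 0 of 18, with medians of -0.22 and -0.06. The 20 transcripts known to be induced by the pathway gave 0 of 25 in MKN74 and 1 of 25 in MKN45, with medians of -0.01 and -0.05. That 1 was EGR3, an early-response transcription factor, at 1.52 ± 0.68 with the knockdown channel alone well above background.

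Between the control cells, 13 of 19 detected induced transcripts were at least 1.5-fold higher in MKN74 and 4 in MKN45, beside 31.1% and 27.1% of all 16700 genes. The 4, by their log2 difference MKN45 minus MKN74, were FOS at 2.06, JUN at 2.09, EPHA4 at 1.19 and IER3 at 1.01. Of the relay genes, 7 of 14 were higher in MKN74, beside the same 31.1%, and 1, HRAS, was higher in MKN45 at 0.77, beside 27.1%. Of the feedback inhibitors, 8 of 16 were higher in MKN74 and 5 in MKN45, again beside 31.1% and 27.1%. Among the 8 was ERRFI1, which blocks the EGFR kinase, at -3.65 ± 0.20. The 5 included LRIG1, a membrane protein that restrains ERBB receptors, at least 4.32 higher on the log2 scale. That bound rests on Aquantile scaling and was not recomputed under other processing. The phosphatase gene DUSP4, also among the 5, stood at 1.40 ± 0.20. The lists thus held genes that differed in both directions. More of them were higher in MKN74, as was so over all 16700 genes. Whether these differences are tied to ligand levels was not tested.

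**Figure D4:**
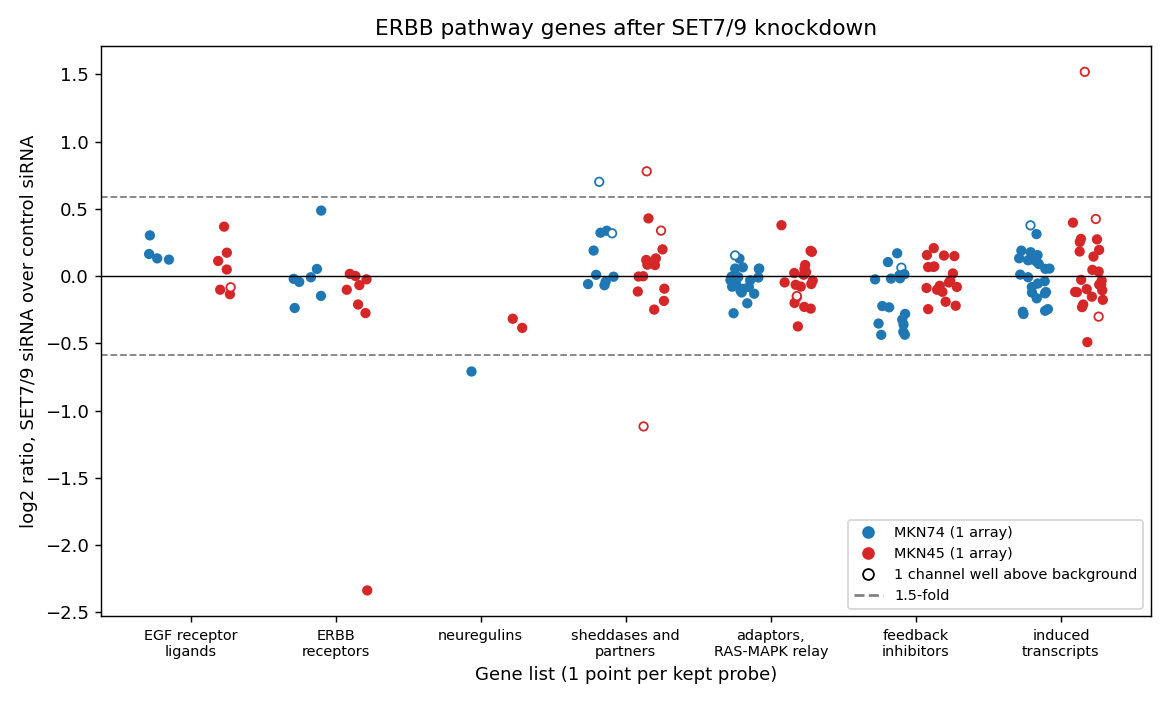
Knockdown log2 ratio (SET7/9 siRNA over control siRNA) of every kept probe of the ligands and of 6 lists of related genes, MKN74 in blue and MKN45 in red, 1 point per probe spread sideways for legibility; open points had 1 channel well above background and dashed lines mark 1.5-fold. All ligand points lie between the dashed lines, and of the points with both channels only an ERBB3 probe in MKN45 (-2.34) and NRG4 in MKN74 (-0.71) lie outside them.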

How the data were processed

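RNA of 2 gastric cancer lines was measured on 1 two-colour array per line (Cy5, SET7/9 siRNA; Cy3, control siRNA). Per the deposited scanner files, Agilent Feature Extraction 10.7.3.1 subtracted the background, normalised the dyes and gave processed and background-subtracted intensities with errors, a log10 ratio with its error and p-value, and a flag for spots well above background. A log2 ratio table from the authors, given to 2 decimals with some cells blank, served as an alternative. Array data hold no read depth; 1 array per line limits the precision.

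The log10 ratios were converted to log2. Control and outlier spots were dropped and repeat spots averaged. Kept probes had 50% or more of their spots well above background in 1 or both channels. Called means at least 1.5-fold. For a gene's value, the brightest kept probe was taken. Levels were compared between lines after Aquantile scaling in limma 3.58.1 (R 4.3.3), with Python 3.11.15, numpy 2.4.6 and pandas 2.3.3 for the rest. The normalisation was tested on simulated data in which few probes differed between the arrays. Many probes differed between these lines, so that test does not show how well the scaling holds here. Where a channel was not well above background a bound was given.

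The members and gene lists were chosen with earlier results of these data known. Named were all ligand probes, SETD7, the ERBB receptors, list genes past 1.5-fold with both channels detected (at most 4 per list and array), and the 3 nearest patterns of at most 2 members. Genes outside this rule (ADAM8, ADAM10, ADAM12, ADAM17, ADAM19, RHBDL2, EGR3, NRG1, NRG2, NRG3, FOS, JUN, EPHA4, IER3, HRAS, ERRFI1, LRIG1 and DUSP4) were chosen after their values were seen. All 9 probe names matched RefSeq symbols (GRCh38.p14), which was used for names, gene order and promoters. Probe positions are GRCh37 as deposited. Alternatives were normexp with an offset of 50 and loess, median centring, other filters, the deposited table, a 2-fold cutoff, an error-model p under 0.01, other scalings and, chosen after seeing the data, no loess.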

Additional observations from a re-analysis of the deposited data

Results flagged for a closer look

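AREG probe 2 had knockdown log2 ratios of opposite sign in the lines, 0.13 ± 0.20 in MKN74 and -0.13 ± 0.21 in MKN45, 1 array each. The difference between the lines was not tested. AREG probe 1 was above 0 in both, at 0.12 and 0.05.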

How the results depend on the processing

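No ligand probe that was well above background in at least 1 channel passed 1.5-fold under any of the 75 alternative values of single probes, of which 74 moved by less than their error. Many of these values could hardly move. For a single spot, the filter and outlier settings repeat the ratio, the deposited table rounds it, and median centring shifts all probes alike. Only normexp and the removal of loess recomputed the ratio. HBEGF lay between 0.30 and 0.42 in MKN74 and between 0.35 and 0.46 in MKN45. BTC in MKN45 lay between -0.03 and 0.17. Of 67 alternative values of counts, medians and control levels, 60 stayed within their error (for counts, within 1.5 times) and 7 did not. Some of these counts were fixed in advance. As no kept ligand probe was called, the 2-fold cutoff, the both-channel filter and the error-model p could not call any. With no filter on dim probes, 2 ligand probes in MKN74 were past 1.5-fold higher (TGFA probe 2 and EGF) and 1 lower (EREG), none of them well above background in either channel. Without loess (added once the data had been seen), the median over ligand genes in MKN74 was 0.40. With normexp, the control difference was -4.67 for AREG probe 2 and -1.59 for HBEGF, and the EREG bound was 1.94. With percentile scaling the EREG bound was 3.90. The cause of these shifts was not tested. An error-model p under 0.01 left no ligand probe, hence no median. No paired analysis was possible because each line had 1 array, and leaving out a replicate was not possible for the same reason. EPGN, EGF and TGFA probe 2 were limited by signal near background.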
